A study of Saccharomyces cerevisiae with 12 samples.

Results

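The first 560 of the 1800 nucleotides of yeast 18S rRNA, its 5′ domain, were examined in 12 RiboMeth-seq libraries. The members were every nucleotide from 1 to 560, which is 560 of the 5196 nucleotides of 18S and 25S rRNA in the tables, and among them the 6 positions that the authors list as 2′-O-methylated, A28, A100, C414, A420, A436 and A541, out of 55 listed positions in both rRNAs. The rule rests on position and on the authors' list of sites. The libraries came from 4 strains of Saccharomyces cerevisiae in the BY4741 background with 3 libraries each. WT + EV is the wild type with the empty low-copy plasmid pRS415, and Δdbp7 + EV is a deletion strain lacking DBP7, which encodes an RNA helicase of 60S subunit biogenesis, with the same plasmid. Δdbp7 + Dbp7WT carries DBP7 on that plasmid under its own promoter and terminator, and Δdbp7 + Dbp7DQGD carries a copy whose catalytic DExD motif has a glutamine for the glutamate. Δdbp7 + EV together with the Dbp7DQGD strain make up the strains without active Dbp7. Total RNA of exponentially growing cultures was used, and the tables hold 11 RNAs without the DBP7 mRNA, so the strain labels could not be checked here. The study describes the experiments as biologically independent, and the labels give only a replicate number, so p-values measure the spread between these libraries.

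Methylation of the ribose 2′-oxygen protects the next phosphodiester bond from alkaline cleavage. In RiboMeth-seq, RNA is partly hydrolysed, short fragments are sequenced, and a methylated nucleotide appears as a gap in the counts of fragment ends. The deposited score is 1 minus the read ends at a nucleotide over the weighted mean of the 6 nucleotides on each side, with values under 0 set to 0. It is close to the methylated fraction at a methylated position, and a nucleotide cleaved like its neighbours scores near 0. In yeast, box C/D small nucleolar RNAs (snoRNAs) guide these methylations by pairing with the pre-rRNA. The 5′ domain is the first part of the 18S rRNA to be transcribed and folds within the earliest small-subunit precursors. A28 is guided by snR74, A100 by snR51, C414 by U14, A420 by snR52, A436 by snR87 and A541 by snR41. U14 also pairs with a second stretch of the domain, and U3 pairs near its 5′ end, and both interactions serve pre-rRNA processing rather than methylation.

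The sequences below are the surroundings of the 6 methylated nucleotides and of U106, a pseudouridine discussed later, as the letters of the deposited tables give them, with those nucleotides in capitals. They are shown because a score depends on the 6 letters on each side.
18S 18 to 38, A28: caguagucauAugcuugucuc
18S 90 to 116, A100 and U106: cgaauggcucAuuaaaUcaguuaucgu
18S 404 to 446, C414, A420 and A436: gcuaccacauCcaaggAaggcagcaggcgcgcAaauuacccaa
18S 531 to 551, A541: cuuaacgaggAacaauuggag
A100 and U106 lie 6 nucleotides apart, as do C414 and A420, so each of these nucleotides enters the flank of its partner with the lowest weight. A436 lies 16 nucleotides from A420 and no other listed site enters its flank.

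The domain was deeply covered. Each library held between 624042 and 2219163 read ends in nucleotides 1 to 560, and the median nucleotide had 1048 to 3894 read ends depending on the library. This was 27.1% to 32.5% of all 18S read ends, against 31.1% of the 18S length. Very short fragments were removed before sequencing. The first 19 nucleotides held only 1 to 35 fragment 3′ ends per library against 6776 to 25730 fragment 5′ ends, so that values at the very start of the domain come from 5′ ends. Within the domain 554 of the 560 nucleotides have a complete flank, since the first 6 lie too close to the end of the RNA.

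**Figure D1:**
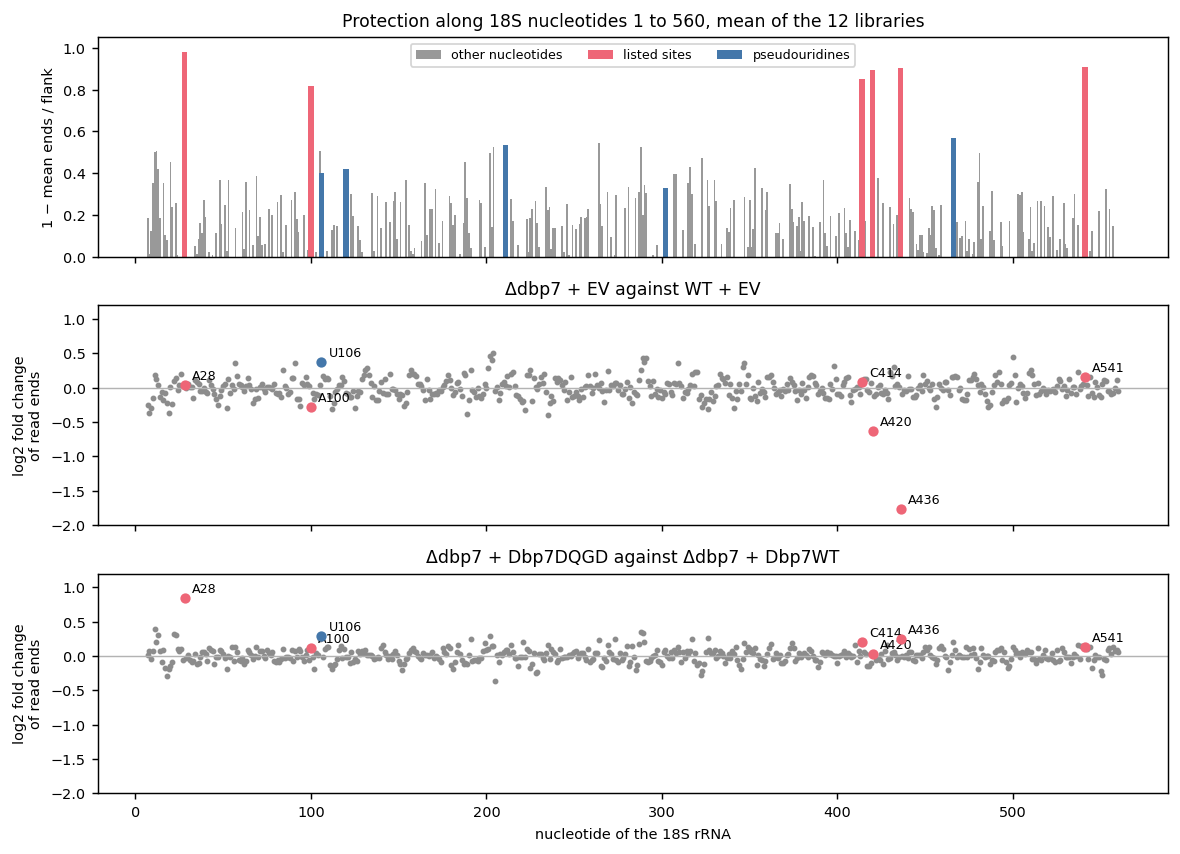
Protection and its change along 18S nucleotides 1 to 560. Upper panel: 1 minus the mean ratio of read ends to the flanking mean over 12 libraries (bars of listed sites and pseudouridines are widened to be seen). Lower panels: log2 fold change of read ends relative to the flank for each of 554 nucleotides in the paired strain comparisons, in which A436 lies lowest in Δdbp7 + EV, at -1.76, followed by A420, and A28 lies highest between the plasmid-borne strains, at 0.85.

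The 6 listed nucleotides had the highest mean scores of the domain. Over all 12 libraries their scores ran from 0.675 to 0.993. The 548 nucleotides of the domain with a flank and no listing had a median of their mean scores of 0.0608 and a highest mean of 0.568. In WT + EV only 8 of these unlisted nucleotides had a mean score over 0.5. The 5 highest were A288 at 0.619, G204 at 0.599, A202 at 0.573, G264 at 0.566 and U211 at 0.561, against 0.784 for the lowest mean of a listed site, at A100. Single libraries did overlap, since G204 reached 0.753 in replicate 2 of WT + EV, above C414 in replicate 1 at 0.724, and U466 reached 0.749 in replicate 3 of the Dbp7WT strain, above A420 there at 0.726. The unlisted guanosines and adenosines scored higher than the pyrimidines, with medians of 0.173 for 125 G and 0.121 for 162 A against 0.0236 for 101 C and 0.0279 for 160 U.

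A28 had the highest mean score of the domain in each strain. Its score was 0.976, 0.971 and 0.974 in WT + EV, 0.966, 0.979 and 0.974 in Δdbp7 + EV, 0.993, 0.985 and 0.990 with plasmid-borne Dbp7WT, and 0.985, 0.974 and 0.984 with Dbp7DQGD. All 3 Dbp7WT libraries lay above all WT + EV and all Δdbp7 + EV libraries. These scores rest on few reads, only 11 to 60 read ends at A28 per library against flanking means of 859 to 2528.

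A100 had the lowest score of the listed sites in the mean of the 12 libraries, 0.818, although C414 had the lower mean in Δdbp7 + EV, 0.797 against 0.823. Its score was 0.739, 0.827 and 0.786 in WT + EV, 0.781, 0.841 and 0.846 in Δdbp7 + EV, 0.798, 0.834 and 0.887 with Dbp7WT, and 0.783, 0.824 and 0.874 with Dbp7DQGD. The 4 strains overlapped at A100. By 5′ ends alone its range was 0.784 to 0.875, and it had the lowest 5′-end score of the 6 sites in each strain's mean. In WT + EV the order of the mean scores was A28 at 0.974, A541 at 0.916, A420 at 0.910, A436 at 0.853, C414 at 0.810 and A100 at 0.784. The library ranges of neighbours in this order overlapped, except that all A436 libraries (0.848 to 0.861) lay below all A420 libraries (0.889 to 0.933).

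A420 and A541 each fell into a high and a low set of libraries, while C414 ran from 0.675 to 0.936 without a clear split. The low values at the 3 sites were shared by same-numbered libraries of a strain set, the 2 EV strains or the 2 plasmid-borne strains. C414, the U14 target, scored 0.724, 0.934 and 0.771 in WT + EV, 0.675, 0.887 and 0.830 in Δdbp7 + EV, 0.902, 0.885 and 0.936 with Dbp7WT and 0.876, 0.873 and 0.932 with Dbp7DQGD. A420 was between 0.889 and 0.945 in 10 libraries and dropped to 0.726 and 0.743 in replicate 3 of both plasmid-borne strains. A541 was between 0.947 and 0.982 in 8 libraries, while replicate 1 of WT + EV and of Δdbp7 + EV had 0.805 and 0.780 and replicate 3 of the plasmid-borne strains had 0.812 and 0.767.

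The low values came from one kind of fragment end. When the same score was computed from 5′ ends alone, C414 was between 0.944 and 0.989, A420 between 0.918 and 0.980 and A541 between 0.953 and 0.983 in all 12 libraries. From 3′ ends alone, C414 went down to 0.502, A420 to 0.651 and A541 to 0.593. The plot of 5′-end and 3′-end scores shows this separation, which is absent at A28. A remark in the authors' table of group means says a barcode correction was applied at some sites. Of 220 means of a site in a strain, 12 lay over 0.001 away from the average of the deposited library scores, 8 of these at C414, A420 and A541. All 12 were recovered when the 5′-end score replaced the deposited score in 1 or 2 libraries of the strain, with a largest remaining difference of 7.77e-16. At C414 these were replicates 1 and 3 of WT + EV and of Δdbp7 + EV, at A420 replicate 3 of both plasmid-borne strains, and at A541 replicate 1 of both EV strains and replicate 3 of both plasmid-borne strains. The library scores below are uncorrected unless stated.

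**Figure D2:**
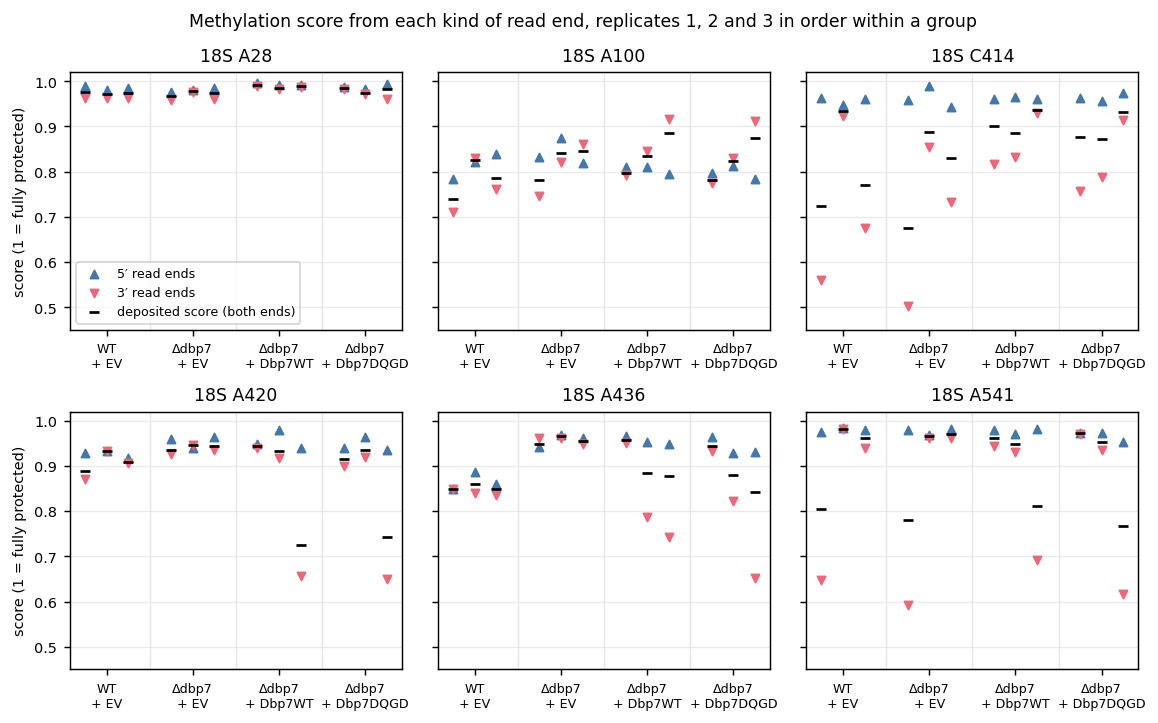
Score at the 6 listed sites in each of the 12 libraries, by strain, from 5′ read ends (blue), 3′ read ends (red) and both (black bar, as deposited). At C414, A420 and A541 the 5′-end scores stay at 0.918 or above in all libraries and the 3′-end scores fall in same-numbered libraries of paired strains.

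Same-numbered libraries deviated together. After the strain mean was removed from the log2 ratio of read ends to flank, the correlation over the 554 nucleotides between WT + EV and Δdbp7 + EV of one number was 0.76 for replicate 1, 0.23 for replicate 2 and 0.32 for replicate 3. Between Δdbp7 + Dbp7WT and Δdbp7 + Dbp7DQGD it was 0.85, 0.88 and 0.89. The highest value for different numbers within these strain pairs was 0.085, and between the EV and plasmid-borne strains same numbers gave -0.27 to 0.13. These are correlations across nucleotides, which are not independent replicates. Deviations from a strain mean cancel out within the strain. Positive values for same numbers therefore bring negative ones for different numbers of a strain pair with them, which are no separate evidence. Different numbers across the EV and plasmid-borne sets reached 0.27 (WT + EV replicate 2 with Dbp7WT replicate 1), between the values of EV pairs 2 and 3. The numbers were taken as pairs within each set of 2 strains, on firmer ground for the plasmid-borne strains. The labels state no pairing, and the pairs rest on these same data. Tests with the pair as a block are given where they change a call.

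**Figure D3:**
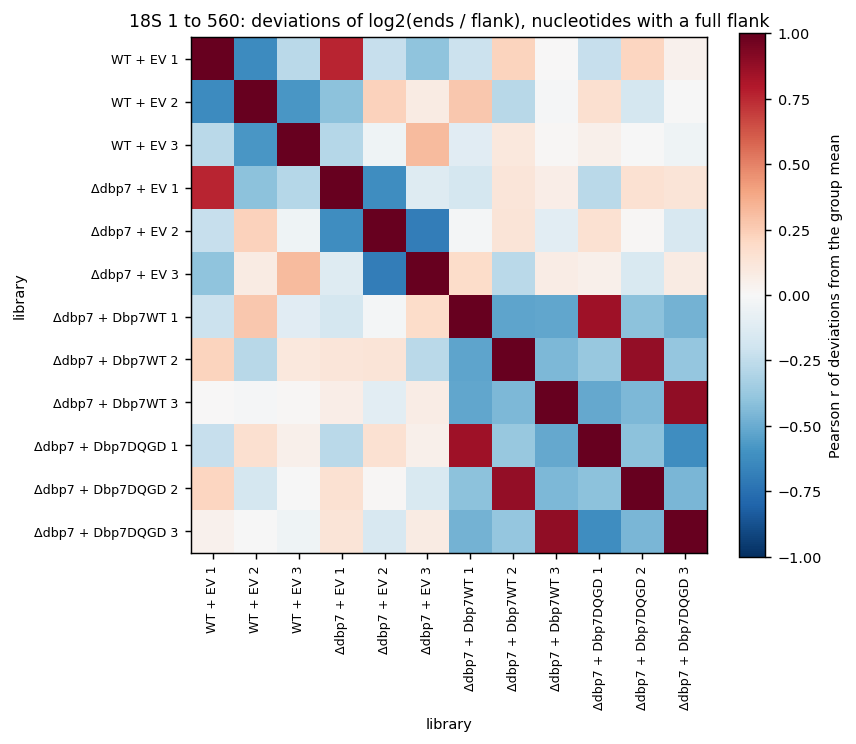
Pearson correlation, over 554 nucleotides of 18S 1 to 560, of the deviations of each library from its strain mean (log2 of read ends over flank). The 6 same-numbered pairs within a strain set are positive, from 0.23 to 0.89, and the plasmid-borne pairs are the darkest.

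Loss of Dbp7 was compared first, Δdbp7 + EV against WT + EV. A436, the snR87 target, was the 1 listed site of the domain called without a block. Its score was 0.848, 0.861 and 0.849 in WT + EV and 0.949, 0.966 and 0.955 in Δdbp7 + EV, and the strains did not overlap. The mean rose from 0.853 ± 0.00695 (SD, n = 3) to 0.957 ± 0.00819, a difference of 0.104 ± 0.0267 (SE) with a 95% interval of 0.0438 to 0.164 (limma across 55 sites, Benjamini-Hochberg adjusted p = 0.038). All 3 pairs were higher, by 0.101, 0.105 and 0.106. With this test 9.09% of the 55 sites were called, 1 higher and 4 lower, so 1 of 6 in the domain was close to that share, and A436 was the higher one. The read ends at A436 were 660, 365 and 259 in WT + EV against flanking means of 4350, 2622 and 1719, and 82, 50 and 92 in Δdbp7 + EV against 1617, 1450 and 2063. The call was lost when a single library was left out in 9 of 12 cases (each WT + EV and each Δdbp7 + EV library, replicates 2 and 3 of Δdbp7 + Dbp7WT and replicate 2 of Δdbp7 + Dbp7DQGD), with adjusted p between 0.0118 and 0.137 over the 12 fits and a difference between 0.0995 and 0.108.

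The other 5 listed sites were not called in this comparison. The differences were 0.0389 at A100 (95% interval -0.0348 to 0.113), 0.0317 at A420 (-0.108 to 0.172), -0.000825 at A28 (-0.0137 to 0.0121), -0.0123 at C414 (-0.151 to 0.126) and -0.0108 at A541 (-0.184 to 0.162). The interval was narrowest at A28. With the pair as a block, a fit that called 30.9% of the 55 sites, A100 passed as well (0.0389 ± 0.00885 (SE), limma adjusted p = 0.0143), being higher in all 3 pairs by 0.0426, 0.0143 and 0.06, and A436 had an adjusted p of 0.000158. By 5′ ends alone the third pair at A100 went the other way, by -0.0214. A420 was also higher in all 3 pairs, by 0.0468, 0.0128 and 0.0354, with a limma adjusted p of 0.0515 under the block.

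The catalytic mutant was compared with the plasmid-borne wild type, Δdbp7 + Dbp7DQGD against Δdbp7 + Dbp7WT. None of the 6 sites was called (limma, 0 with an unadjusted p under 0.05), against 10.9% of the 55 sites. The differences were all below 0 and small, -0.00835 at A28 (95% interval -0.0212 to 0.00455), -0.0129 at A100 (-0.0866 to 0.0609), -0.014 at C414 (-0.152 to 0.124), -0.00302 at A420 (-0.143 to 0.137), -0.0177 at A436 (-0.0778 to 0.0423) and -0.00986 at A541 (-0.183 to 0.163). A436 was 0.957, 0.885 and 0.877 with Dbp7WT and 0.945, 0.880 and 0.841 with Dbp7DQGD, lower in each of 3 pairs, and the strains overlapped.

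Plasmid-borne Dbp7WT was then compared with WT + EV. No site of the 55 passed (limma, 0%), and in the domain only A28 had an unadjusted p under 0.05. At A28 the difference was 0.0155 with a 95% interval of 0.00256 to 0.0284 and an adjusted p of 0.774 (limma). A436 differed by 0.0535 (-0.00657 to 0.114). By 5′ ends alone, however, A436 separated WT + EV from all other strains. It was 0.848, 0.886 and 0.859 in WT + EV, 0.941, 0.968 and 0.960 in Δdbp7 + EV, 0.967, 0.953 and 0.949 with Dbp7WT, and 0.963, 0.927 and 0.931 with Dbp7DQGD. None of the 9 libraries from deletion strains, with or without active Dbp7, reached down to the WT + EV libraries. On this scale the difference from WT + EV was 0.0922 in Δdbp7 + EV, 0.092 with Dbp7WT and 0.0761 with Dbp7DQGD, with limma adjusted p values of 0.000205, 0.000524 and 0.000864. The shares of the 55 sites called on this scale were 30.9%, 3.64% and 41.8%. By 3′ ends the plasmid-borne strains spread widely in step with the replicate number, 0.950, 0.786 and 0.742 with Dbp7WT and 0.932, 0.822 and 0.651 with Dbp7DQGD, while the EV strains stayed at 0.835 to 0.849 and 0.948 to 0.962. The part of the read-end kind in the deposited scores of the plasmid-borne strains was not tested.

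**Figure D4:**
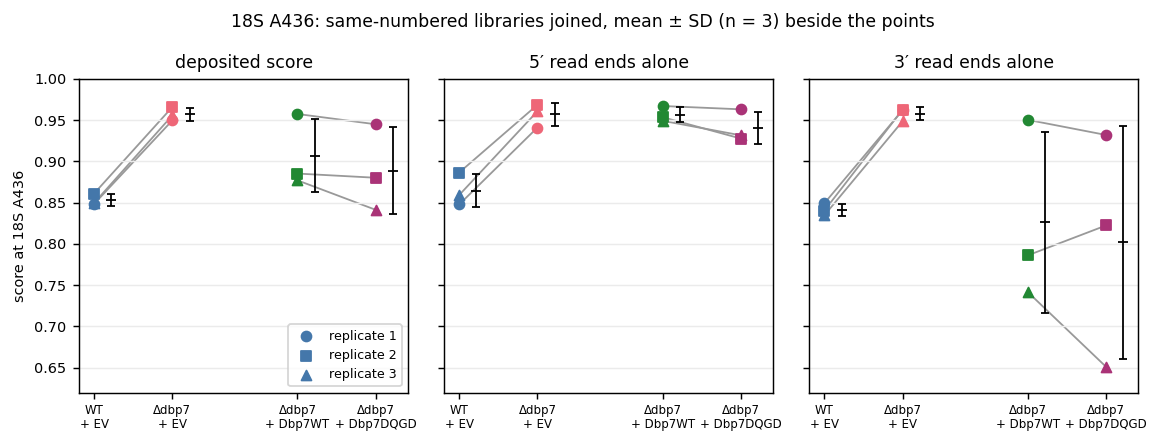
Score at 18S A436 as deposited (left), from 5′ ends (middle) and from 3′ ends (right), with same-numbered libraries joined and the mean ± SD of 3 libraries beside the points. The WT + EV libraries lie at 0.848 to 0.886 by 5′ ends and the other 9 at 0.927 to 0.968.

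Δdbp7 + Dbp7DQGD against WT + EV called 16.4% of the 55 sites and none in the domain (limma, 0 of 6 with an unadjusted p under 0.05). The largest differences in the domain were 0.0836 at C414 (95% interval -0.0547 to 0.222) and -0.0458 at A420 (-0.186 to 0.0942), beside replicate SDs of 0.11 and 0.0333 at C414 and 0.0218 and 0.106 at A420. With the 5′-end scores put in where the authors' means require them, both turned sign, to -0.059 at C414 and 0.0181 at A420, with limma adjusted p of 0.0979 and 0.319. Only WT + EV libraries were replaced at C414 and only Dbp7DQGD at A420, so 5′-end scores were set against summed-end scores. By 5′ ends in all libraries, C414 averaged 0.964 with Dbp7DQGD and 0.957 in WT + EV, and A420 averaged 0.946 and 0.926. At 5′ ends alone A436 was the 1 site of the domain called, in a fit that called 41.8% of the 55 sites.

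Pooling both strain pairs, the strains without active Dbp7 against those with it, also called 16.4% of the 55 sites, all lower, and none in the domain by limma, where A436 alone had an unadjusted p under 0.05. By the exact permutation test over all regroupings of 6 against 6 libraries none of the 6 was called either, and none had an unadjusted p under 0.05. That test called 12.7% of the 55 sites, all lower. A436 had a pooled difference of 0.0431 with a 95% interval of 0.000601 to 0.0856 and a limma adjusted p of 0.174. Under the pair block it was called (adjusted p = 0.00051), in a fit that called 38.2% of the sites. The value is the mean of differences of 0.104 in the EV strains and -0.0177 in the plasmid-borne strains. C414 had a pooled difference of -0.0132 (-0.111 to 0.0846).

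The read ends of every nucleotide of the domain were then tested relative to their own flanks, independently of the list of sites. With edgeR's quasi-likelihood test across 5172 nucleotides of 18S and 25S rRNA, 0% passed in the EV comparison, 0% between the plasmid-borne strains, 0% in Dbp7WT against WT + EV and 0% in the pooled comparison, and so none of the 554 in the domain. DESeq2 called none in the domain either, beside 0.0193% of the 5172 in the EV comparison and 0.116% in the pooled comparison. It called 0% in the other comparisons. The unadjusted edgeR p was under 0.05 at 6, 1, 20 and 9 of the 554. Over all 5172 these were 67, 21, 231 and 85, each below a share of 0.05, so the lack of calls does not show that nothing changed. With the pair as a block, 63, 26 and 67 of the 554 were under 0.05 in the EV, plasmid-borne and pooled comparisons. Over all 5172 the block gave 519, 278 and 654. Without the block, the 1 nucleotide under 0.05 between the plasmid-borne strains was A28, with a log2 fold change of 0.85 ± 0.39 (edgeR adjusted p = 0.9999). In Δdbp7 + EV, A436 had the smallest p of the domain, with read ends lower by a log2 fold change of -1.76 ± 0.41 (SE; edgeR adjusted p = 0.966, or 0.00207 with the pair as a block). The 5th and 95th percentiles of the domain's log2 fold changes were -0.22 and 0.23 in this comparison and -0.15 and 0.16 between the plasmid-borne strains.

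U106 was the nucleotide of the domain with the smallest p in the pooled scan. It is one of 5 pseudouridines of the domain and is guided by the box H/ACA snoRNA snR44. Pseudouridine has an unmethylated ribose, and this assay does not measure pseudouridylation. Read ends at U106 relative to the flanking mean were 0.574, 0.424 and 0.571 in WT + EV and 0.747, 0.534 and 0.744 in Δdbp7 + EV. They were 0.582, 0.524 and 0.523 with Dbp7WT and 0.734, 0.635 and 0.617 with Dbp7DQGD. The value without active Dbp7 was higher in 6 of 6 pairs, by 0.0942 to 0.174, and the plasmid-borne strains did not overlap. U106 was picked by its p in these same libraries, so the agreement of its pairs is not independent support. On the same ratio C317 and G362, taken up below, were also higher in 6 of 6 pairs, C258 in 4 and G487 in 1. How many nucleotides of the domain were higher in all pairs was not counted. The log2 fold change at U106 was 0.37 ± 0.16 in the EV strains, 0.29 ± 0.16 in the plasmid-borne strains and 0.33 ± 0.11 pooled (edgeR adjusted p = 0.9998 pooled, unadjusted 0.0117). With the pair as a block the pooled value passed, at 0.32 ± 0.05 (edgeR adjusted p = 0.0254), beside 14 of 5172 nucleotides called by that fit. It was higher by both kinds of end, by 0.42 with 5′ ends and 0.30 with 3′ ends. The 617 to 2111 read ends at U106 per library make counting error small here. The only other nucleotide of the domain called by that fit was A436.

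The remaining 4 pseudouridines, all guided by H/ACA snoRNAs (U120, U211 and U302 by snR49, U466 by snR189), were not higher in all pairs. The value without active Dbp7 was higher in 2 of 6 pairs at U120, 3 at U211, 3 at U302 and 5 at U466. Their ratios of read ends to flank ranged over the 12 libraries from 0.475 to 0.717 at U120, 0.407 to 0.554 at U211, 0.593 to 0.806 at U302 and 0.251 to 0.625 at U466. At U466 replicate 2 of both plasmid-borne strains was high, 0.527 and 0.605, against 0.251 to 0.336 in their other replicates. None of the 4 was called in any fit of the pooled comparison.

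**Figure D5:**
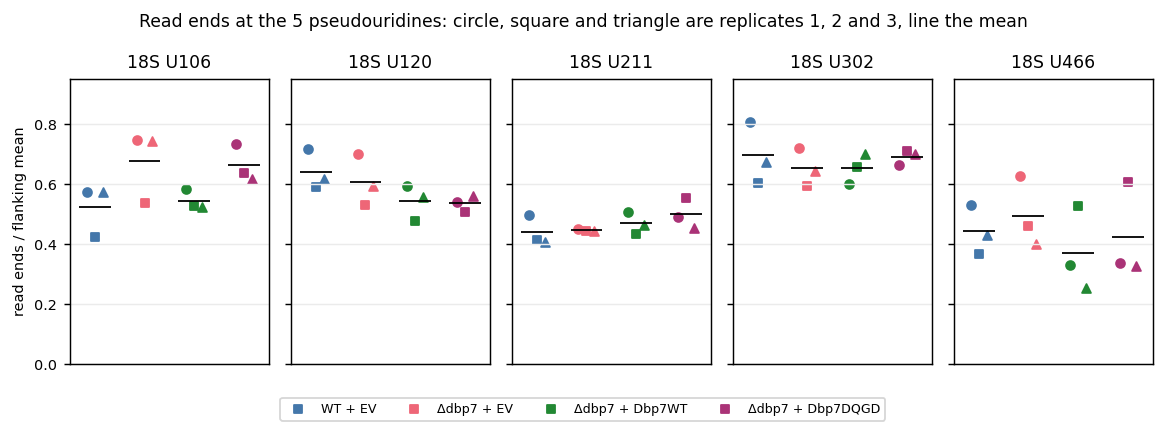
Read ends relative to the flanking mean at the 5 pseudouridines of the domain, per library (circle, square and triangle for replicates 1, 2 and 3) with the strain mean as a line. At U106 the mean is 0.523 in WT + EV and 0.543 with Dbp7WT, against 0.675 in Δdbp7 + EV and 0.662 with Dbp7DQGD.

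With 5′ ends alone and the pair as a block, chosen after the summed ends had been seen, 5 nucleotides of the domain were called in the pooled comparison, beside 1.24% of the 5141 tested. Read ends rose at U106, C258, C317 and G362, by log2 fold changes of 0.41, 0.42, 0.36 and 0.28, and fell at G487, by 0.42 on the log2 scale. The edgeR adjusted p values lay between 0.0293 and 0.043. C258 had ratios of read ends to flank of 0.579 to 0.871 by summed ends, and its strains overlapped.

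The snoRNAs that pair with the domain outside methylation were compared last. The 89 nucleotides of U14 in the tables hold a run of 13 Watson-Crick pairs with 18S nucleotides 83 to 95, the stretch used in pre-rRNA processing, shown with the pairing letters in capitals.
18S 78 to 100: acaguGAAACUGCGAAUGgcuca
U14 24 to 46: cuuaaCAUUCGCAGUUUCcacgg
No other run of 8 or more was found between U14 and the domain. Those 89 letters held at most 4 consecutive pairs covering C414, and the gene is 126 nucleotides long in the reference annotation (R64). U14 had 0 read ends in all 12 libraries, so no level of U14 was measurable. For scale, 3 read ends would be 0.0015 per 1000 18S read ends in the shallowest library. The 2 copies of U3 together had 0 to 6 read ends per library, 22 in all with active Dbp7 and 12 without. U3 read ends per 1000 18S read ends averaged 0.000955 with active Dbp7 and 0.000805 without (exact permutation test, two-sided, p = 0.716, the only one of the pair that could be tested). With so few ends a difference in level was not detectable. Why the counts of both snoRNAs were so low was not tested, and they are not read as abundances.

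The 5′ domain as a whole took part in a shift between the rRNAs. Per 1000 read ends of 18S and 25S together, nucleotides 1 to 560 held 103, 98.7 and 92.5 in WT + EV and 93.1, 97.0 and 98.2 in Δdbp7 + Dbp7WT. They held 135, 105.6 and 134 in Δdbp7 + EV and 118, 131 and 138 in Δdbp7 + Dbp7DQGD. All 6 libraries without active Dbp7 lay above all 6 with it. This went with the share of 18S in 18S and 25S read ends, 31.3% to 33.1% with active Dbp7 and 39.0% to 42.6% without. Such shares alone do not tell whether 18S rRNA rose or 25S rRNA fell. From read numbers of these libraries relative to all mapped reads, the study reports less rRNA of both subunits without the helicase or its activity. The stronger reduction it reports is that of the large-subunit rRNA. Within the 18S rRNA the domain's share was 29.2% to 31.2% with active Dbp7 and 27.1% to 32.5% without, so the strains overlapped. TMM scaling, edgeR's trimmed mean of M-values between libraries, was also put in place of the flank in the scan. The median log2 fold change of the 554 nucleotides was then 0.36 in the EV strains and 0.49 in the plasmid-borne strains. None was called by edgeR, and 108 and 182 had an unadjusted p under 0.05, beside 405 and 549 of all 5172. Relative to the flank the same medians were -0.01 and 0.01.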

How the data were processed

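The deposited counts are whole numbers of 5′ ends, 3′ ends and their sum per nucleotide, which the authors made from Ion Proton reads of alkaline-hydrolysed total RNA mapped to yeast transcripts. The submitters' processing notes name cutadapt 2.0 and Bowtie2 2.3.4.1, and the sources used here do not give the build or the transcript set. The deposited score per library, a fraction from 0 to 1, was recomputed from the counts to within 5e-10. The authors' group means carry a barcode correction and served only as an alternative, and 24 further columns of other score versions per library were not used. Total read ends per library ran from 5580519 to 23549872. Site scores were tested with limma 3.58.1 over 55 sites and 12 libraries, with 1 mean per strain and Benjamini-Hochberg adjustment at 0.05. Read ends per nucleotide were tested with edgeR 4.0.16 (quasi-likelihood, offset the log of the flanking mean, which had to be at least 50 in every library) and, as an alternative, DESeq2 1.42.0, in R 4.3.3. Single values had exact permutation tests over all regroupings in scipy. Fits were run on simulated data with large set effects and independent libraries. Deviations shared by same-numbered libraries were not simulated, so this does not show what the fits can detect here. Alternatives were other scalings, filters, flanks, kinds of read end, tests, blocks and each library left out, and the fits that combine the pair block with 5′ ends were added after the data had been seen. Over 5172 nucleotides of both rRNAs, deviations correlated at 0.40 to 0.86 between same-numbered libraries of the EV strains and of the plasmid-borne strains. The pair block rests on these values. Different numbers gave -0.19 or less, which is no separate evidence, because deviations from a strain mean cancel out within the strain. The 6 listed sites were named in every comparison, with called nucleotides of the scan, the 5 unlisted nucleotides of highest WT + EV score, 5 textbook pseudouridines and the U14 and U3 matches. Members and lists were chosen with earlier results of these data known.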

Additional observations from a re-analysis of the deposited data

Results flagged for a closer look

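The effect at A436 differed between the strain sets. Inactive minus active Dbp7 was higher in 3 of 3 EV pairs and lower in 3 of 3 plasmid-borne pairs, and the difference of these effects was 0.122 ± 0.0377 in score (limma adjusted p = 0.552, unadjusted 0.01, or 0.000528 with the pair as a block). By 5′ ends alone it was 0.108 (adjusted p = 0.00253, and 0.000578 with the pair as a block).

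A100 also moved in opposite directions in all pairs of the 2 sets, higher in the 3 EV pairs and lower in the 3 plasmid-borne pairs, with a difference of effects of 0.0518 ± 0.0463 (limma adjusted p = 0.998, and 0.091 with the pair as a block). By 5′ ends alone the signs at A100 were mixed within both sets.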

How the results depend on the processing

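Of the planned values of single sites and nucleotides, 771 stayed the same in direction and side of the threshold, 67 reversed, 8 became stronger and 10 weaker. A436 in the EV strains was the only value called in the main fits, so staying the same mostly meant staying uncalled. The authors' group means had no test and counted as the same when in the same direction and within the SE of the main difference. The exceptions follow. The cause of none of these changes was tested.

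The 1 site called in Δdbp7 + EV against WT + EV became 0 with 3′ ends alone, 2 with the pair as a replicate block, 2 with that block on 5′ ends, 3 with that block on scores corrected as the authors' means require, and 0 to 1 with a library left out. Of the 55 sites these fits called 0%, 30.9%, 40% and 36.4%, and 1.82% to 10.9% with a library left out. With 5′ ends alone 1 site was called in each of Dbp7DQGD against WT + EV, Dbp7WT against WT + EV and the pooled comparison. The shares of the 55 sites called there were 41.8%, 3.64% and 41.8%. The pooled comparison gave 1 under each of the 3 pair-block fits, which called 38.2% to 41.8% of the 55 sites. For nucleotides, 0 calls became 1 in the EV strains under the pair block with summed or 5′ ends, and 2 and 5 in the pooled comparison. Of all 18S and 25S nucleotides tested, these fits called 0.058% and 0.214% in the EV strains and 0.271% and 1.24% pooled. The block changed no other call, apart from the difference of effects at A436 given above.

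Directions turned as follows. With 3′ ends alone, the difference became 0.00294 at A28 (EV strains), and -0.0396 (Dbp7DQGD against WT + EV) and -0.0154 (Dbp7WT against WT + EV) at A436. With 5′ ends alone, with or without the block where it was fitted, C414 became 0.0075 (EV strains), 0.00229 (plasmid-borne strains) and 0.00489 (pooled). Against WT + EV, 5′ ends gave -0.0175 (Dbp7DQGD) and -0.00953 (Dbp7WT) at A100 and 0.0199 and 0.0301 at A420. Corrected scores and the authors' means gave -0.059 and -0.045 at C414 and 0.0181 and 0.0284 at A420. The libraries replaced for these were of WT + EV at C414 and of the plasmid-borne strain at A420. On the log2 scale of read ends over flank, with the sign set so that higher means more protection, A541 became 0.0857 between the plasmid-borne strains. For read ends on the log2 scale, A436 (Dbp7WT against WT + EV) became 0.12 with 3′ ends and U106 -0.056 with 5′ ends. In the pooled comparison U120 became 0.35 with TMM scaling in place of the flank and 0.0146 with 3′ ends, U211 -0.0533 with 5′ ends and -0.0311 with those under the block, and U302 0.45 with TMM, 0.038 with 3′ ends and 0.00018 under the block. U3 became 0.000115 per 1000 25S read ends and 4.18e-06 per 1000 of all read ends.

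Leaving out 1 library gave these ranges. In the EV strains A28 lay between -0.00385 and 0.00257, C414 between -0.057 and 0.0499 and A541 between -0.0664 and 0.0520. Between the plasmid-borne strains A100 lay between -0.0364 and 0.0107, C414 between -0.0332 and 0.000201, A420 between -0.0737 and 0.0578, A436 between -0.0458 and 0.00765 and A541 between -0.0573 and 0.0553. Against WT + EV, A420 lay between -0.0807 and 0.0150 and A541 between -0.0746 and 0.0461 in the Dbp7DQGD strain, and between -0.0807 and 0.0279 and between -0.0648 and 0.0383 with Dbp7WT. Pooled, C414 lay between -0.0355 and 0.0180, A420 between -0.0210 and 0.0447 and A541 between -0.0381 and 0.0222. On the log2 scale A436 lay between -0.11 and 0.57 (plasmid-borne strains), U106 between -0.0765 and 0.13 (Dbp7WT against WT + EV) and U302 between -0.0491 and 0.0586 (pooled). U3 lay between -0.000389 and 0.000157. Depth limits A28 most, with as few as 11 read ends. The ± values of the edgeR fits include the spread between libraries.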
